A study of Mus musculus with 24 samples.

Results

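Secretory activation, the step from the gland of late pregnancy to one that delivers milk, was described here through its miRNAs, by comparing day 7 of lactation (Lac7, 6 mice) with day 18 of gestation (P18, 6 mice). A miRNA was a member of the comparison when its mean was at least 1 RPM (the reads of a miRNA scaled to an equal total of miRNA reads in every library) at P18 or at Lac7, and 490 of the 1009 miRNAs listed by the study met this rule. All mice were females of the inbred strain C57BL/6, which the labels spell C57/BL6, with no transgene, deletion or treatment named in the labels, and the age of the P18 and Lac7 mice is not given in the sources used here. Small RNA was taken from whole glands of the abdominal and inguinal pairs, homogenised, with 1 library per mouse, so epithelium, fat, stroma, vessels and immune cells were measured together. The other 12 libraries of the series, from adult mice of 10 weeks (W10) and from day 3 of involution (Inv3), entered the estimate of the spread and are otherwise quoted only beside a member. The design text of the deposited series exchanges the days of lactation and involution and mentions no abdominal glands. The days used here are those of the labels and the study's methods.

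A miRNA is cut from a hairpin precursor, which leaves a 5p and a 3p arm, and 1 of them is usually loaded into Argonaute to repress mRNAs. Target choice rests mainly on the seed, bases 2 to 8 counted from the 5′ end, so miRNAs with the same seed form a family even when they come from different chromosomes, while neighbours in a genomic cluster are often cut from a shared transcript. During late pregnancy alveolar epithelium proliferates and begins to differentiate, and after birth the fall of progesterone in the presence of prolactin starts copious milk secretion, while fat and stroma take up less of the gland.

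The sequences below carry the comparisons that follow. They were taken from RefSeq on build GRCm38.p6, which gave a mature sequence for 418 of the 490 members, and the seed is in capitals. The first set is the miR-200 family, which is typical of epithelium and represses ZEB1 and ZEB2. It holds 2 seeds that differ at 1 base, and each seed is made from both of its genomic clusters, chr4:156053916-156055742 (miR-200a, miR-200b and miR-429, with the miR-200a hairpin in introns of Ttll10 and Gm13648) and chr6:124717917-124718386 (miR-141 and miR-200c, with the miR-141 hairpin in an intron of Gm15884 and an exon of Gm29008).

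miR-200a-3p: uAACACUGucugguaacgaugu
miR-141-3p: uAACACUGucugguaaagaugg
miR-200b-3p: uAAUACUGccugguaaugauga
miR-200c-3p: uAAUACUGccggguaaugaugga
miR-429-3p: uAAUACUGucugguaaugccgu

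The second set holds families whose members share a seed but did not move together, namely miR-181, miR-146 and miR-125. The miR-181a hairpins lie at chr1:137966455-137966541, in an exon of A430106G13Rik, and at chr2:38852735-38852810, opposite an intron of Nr6a1, and miR-181c and miR-181d lie together at chr8:84178759-84178945. The miR-146a hairpin, named Mir146, is at chr11:43374397-43374461 with no host gene annotated, and Mir146b at chr19:46342762-46342870 is in an intron of Mfsd13a.

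miR-181a-5p: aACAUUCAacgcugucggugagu
miR-181b-5p: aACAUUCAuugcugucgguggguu
miR-181c-5p: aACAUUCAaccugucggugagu
miR-181d-5p: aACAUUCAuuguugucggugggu
miR-146a-5p: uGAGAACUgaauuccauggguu
miR-146b-5p: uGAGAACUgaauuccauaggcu
miR-125a-5p: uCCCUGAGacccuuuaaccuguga
miR-125b-5p: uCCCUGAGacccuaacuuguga

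The third set comes from the paralogous clusters miR-17-92 and miR-106b-25, with miR-32 as a seed-mate outside them. The miR-17 hairpin is at chr14:115043671-115043754 in an exon of Mir17hg, and the miR-106b hairpin at chr5:138165737-138165818 in an intron of Mcm7.

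miR-17-5p: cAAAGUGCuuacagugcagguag
miR-20a-5p: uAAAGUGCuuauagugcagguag
miR-93-5p: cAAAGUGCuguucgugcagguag
miR-25-3p: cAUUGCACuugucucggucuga
miR-92a-3p: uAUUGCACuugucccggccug
miR-32-5p: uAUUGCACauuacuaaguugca

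The last set holds abundant or strongly changed miRNAs named below. The hairpin of miR-148a is at chr6:51269812-51269910 with no host gene annotated, that of miR-204 at chr19:22750605-22750672 in an intron of Trpm3, and that of miR-541 at chr12:109742409-109742498 in an intron of Mirg.

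miR-148a-3p: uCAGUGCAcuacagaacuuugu
miR-152-3p: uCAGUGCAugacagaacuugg
miR-204-5p: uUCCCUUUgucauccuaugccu
miR-541-5p: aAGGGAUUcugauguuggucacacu

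P18 libraries held 870030 to 1165216 reads on miRNAs and Lac7 libraries 660346 to 751890, so 3 reads, the most that a count of 0 allows, correspond to 2.57 to 3.45 RPM at P18 and 3.99 to 4.54 RPM at Lac7. These limits cover counting error only. On log2(RPM + 1), 164 members (33.5%) were called, that is, had an adjusted p under 0.05 by limma and a log2 difference of at least 1. Of these, 41 (8.37% of members) were higher and 123 (25.1%) lower at Lac7, and the median over the members was -0.37. Whatever the size of the difference, 246 (50.2%) passed the test, 75 upward and 171 downward. The mice of the stages did not overlap in 158 members (32.2%), of which 112 were called. At both stages 402 members reached 1 RPM, whereas 71 did so only at P18 and 17 only at Lac7, and 103 members had a mean under 3 RPM at both stages. Because RPM divide by a total that few abundant miRNAs dominate, the same fit was made after scaling by size factors, which raised the median by 0.233 to -0.14 and gave 151 calls (30.8%), 59 higher and 92 lower. The share of calls that were higher was thus 25% in RPM and 39.1% with size factors. All 41 higher calls and 92 of the 123 lower calls were made under both scalings, and no call changed direction. Size factors were lower in every Lac7 library (0.80 to 0.93) than in any P18 library (0.97 to 1.10), which raises the differences. Higher calls could thus hardly be lost, nor calls of this size reversed, so that part of the agreement is no separate test. Differences below are in RPM as deposited. A value is to be read against the median of -0.37, and the calls of single miRNAs that size factors removed are named. As a check of the tissue, the epithelial miR-200a-3p and miR-205-5p, the fibroblast miR-199a-3p, the smooth muscle miR-143-3p and the endothelial miR-126a-3p all had over 100 RPM in each of the 12 mice.

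Most of the reads that changed place belonged to few miRNAs. The 10 most abundant held 68.6% ± 0.93 (SD, n = 6) of all reads at P18 and 69.2% ± 0.87 at Lac7. Summed over the members that gained, mean RPM rose by 195245, of which miR-200a-3p gave 20.3%, miR-148a-3p 12.8%, miR-146b-5p 9.8%, miR-200b-3p 8.65% and miR-103-3p 8.57%. These are 2 miR-200 members, the milk-rich miR-148a, a member of the miR-146 pair and a miRNA from introns of pantothenate kinase genes. The loss was carried by miR-16-5p with 21.1%, let-7c-5p with 17.4%, miR-199a-3p with 16%, miR-142b with 8.5% and miR-142a-5p with 4.39%. Below 10 RPM, 7 of 191 members were called higher and 40 lower (background 8.37% higher and 25.1% lower). Between 10 and 100 RPM it was 13 and 46 of 133, and between 100 and 1000 RPM 11 and 24 of 97. Of the 48 members between 1000 and 10000 RPM 7 were higher and 8 lower, and of the 21 above that 3 and 5. Lac7 libraries were shallower, and the part of depth among the members below 10 RPM was not tested. Over all members, with the libraries thinned to 660346 reads 40 members were called higher and 111 lower.

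Most of the miR-200 family rose. Of its 9 measured arms, 5 were called higher and none lower (background 8.37% higher), with a median log2 difference of 1.05, and the summed level of the family went from 50262 to 64834 RPM to 115879.6 to 135587 RPM. Its most abundant member, miR-200a-3p, ranged from 27361 to 39510.1 RPM at P18 (median 34236) and from 62672 to 82433 RPM at Lac7 (median 73920.3). Every Lac7 mouse lay above every P18 mouse, and the log2 difference was 1.11 ± 0.25 (SE, adjusted p = 0.000574). miR-200b-3p, from the same cluster, ranged from 13596 to 15439 RPM at P18 (median 14105) and from 26942 to 34464 RPM at Lac7 (median 31741), again without overlap, and differed by 1.12 ± 0.18 (SE, adjusted p = 1.26e-05). The largest rise of the family was that of miR-141-3p from the chromosome 6 cluster, which ranged from 1151 to 1836 RPM at P18 (median 1454) and from 5838 to 6844 RPM at Lac7 (median 6509.6) and differed by 2.14 ± 0.27 (SE, adjusted p = 2.22e-07). Its neighbour miR-200c-3p ranged from 5506 to 7761 RPM at P18 (median 6732) and from 6836 to 10155 RPM at Lac7 (median 9206). The mice of the stages overlapped, and its difference of 0.40 ± 0.20 (SE, adjusted p = 0.095) did not pass the test. Read by seed, AACACUG (miR-141 and miR-200a) went from a summed 28547 to 41276 RPM at P18 to 68511 to 89113 RPM at Lac7, and AAUACUG (miR-200b, miR-200c and miR-429) from 20268 to 23774 RPM to 35843 to 45498 RPM. The mice of the stages did not overlap in either sum. miR-141-3p also rose against its seed-mate miR-200a-3p, with a log2 ratio moving from -4.55 ± 0.21 at P18 to -3.52 ± 0.09 at Lac7 (SD, n = 6 mice each), and the mice did not overlap (two-sided exact permutation test, adjusted p = 0.00657 over 85 pairs of seed-mates). At W10 the mean of miR-200a-3p was 8548 RPM and at Inv3 31552 RPM.

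miR-375-3p, known from secretory and endocrine epithelia, ranged from 17.1 to 42.5 RPM at P18 (median 34.1) and from 844 to 1028 RPM at Lac7 (median 982). No other member rose as much, and the difference was 4.91 ± 0.49 (SE, adjusted p = 6.21e-09). miR-148a-3p, which represses DNMT1 and is among the most abundant miRNAs of milk, ranged from 19936 to 24827 RPM at P18 (median 20707) and from 42158 to 49878 RPM at Lac7 (median 46970.1). The difference was 1.12 ± 0.30 (SE, adjusted p = 0.00285), without overlap. Its seed-mates were not called in RPM. miR-148b-3p differed by 0.73 (adjusted p = 0.00255) and was called only with size factors. miR-152-3p differed by 0.30 (adjusted p = 0.0811), and the log2 ratio of miR-148a-3p to it moved from 5.14 ± 0.17 at P18 to 5.96 ± 0.15 at Lac7 (SD, n = 6 mice each), without overlap (exact permutation test, adjusted p = 0.00657). The scarce miR-148b-5p was called too, at 1.42. In the miR-183 cluster, which lies on chromosome 6 and is best known from sensory cells, miR-182-5p ranged from 1775 to 2324 RPM at P18 (median 2037) and from 5808 to 7101 RPM at Lac7 (median 6656) and differed by 1.69 ± 0.21 (SE, adjusted p = 2.22e-07). miR-96-5p was called as well, with a difference of 1.2 (adjusted p = 0.000574), while miR-183-5p of the same cluster differed by 0.19 (adjusted p = 0.576), so 2 of 5 arms were called (background 8.37% higher). In the miR-30 family, 1 of 11 arms was called, near the 8.37% of all members called higher. This arm, miR-30a-5p, ranged from 3968 to 4576 RPM at P18 (median 4149.8) and from 7284 to 9729.7 RPM at Lac7 (median 8893) and differed by 1.07 ± 0.14 (SE, adjusted p = 2.87e-07). The median of the family was 0.32, so most arms lay above the median of all members without passing the cutoff of 1, and without P18 mouse 6 another arm was called lower. miR-210-3p, which is induced by hypoxia-inducible factors, ranged from 228 to 398 RPM at P18 (median 299) and from 659 to 835 RPM at Lac7 (median 730.2), with no overlap. It differed by 1.30 ± 0.34 (SE, adjusted p = 0.00285) and had means of 31.6 RPM at W10 and 74.2 RPM at Inv3. Of miRNAs with no role named here, miR-3068-5p ranged from 169 to 263 RPM at P18 (median 228) and from 663 to 851 RPM at Lac7 (median 765) and differed by 1.79 ± 0.16 (SE, adjusted p = 6.67e-10). miR-33-5p, which lies in an intron of a sterol regulator gene and represses cholesterol export, ranged from 8.68 to 31.0 RPM at P18 (median 18.9) and from 41.2 to 97.6 RPM at Lac7 (median 63.2) and differed by 1.86 ± 0.30 (SE, adjusted p = 9.03e-06).

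**Figure D1:**
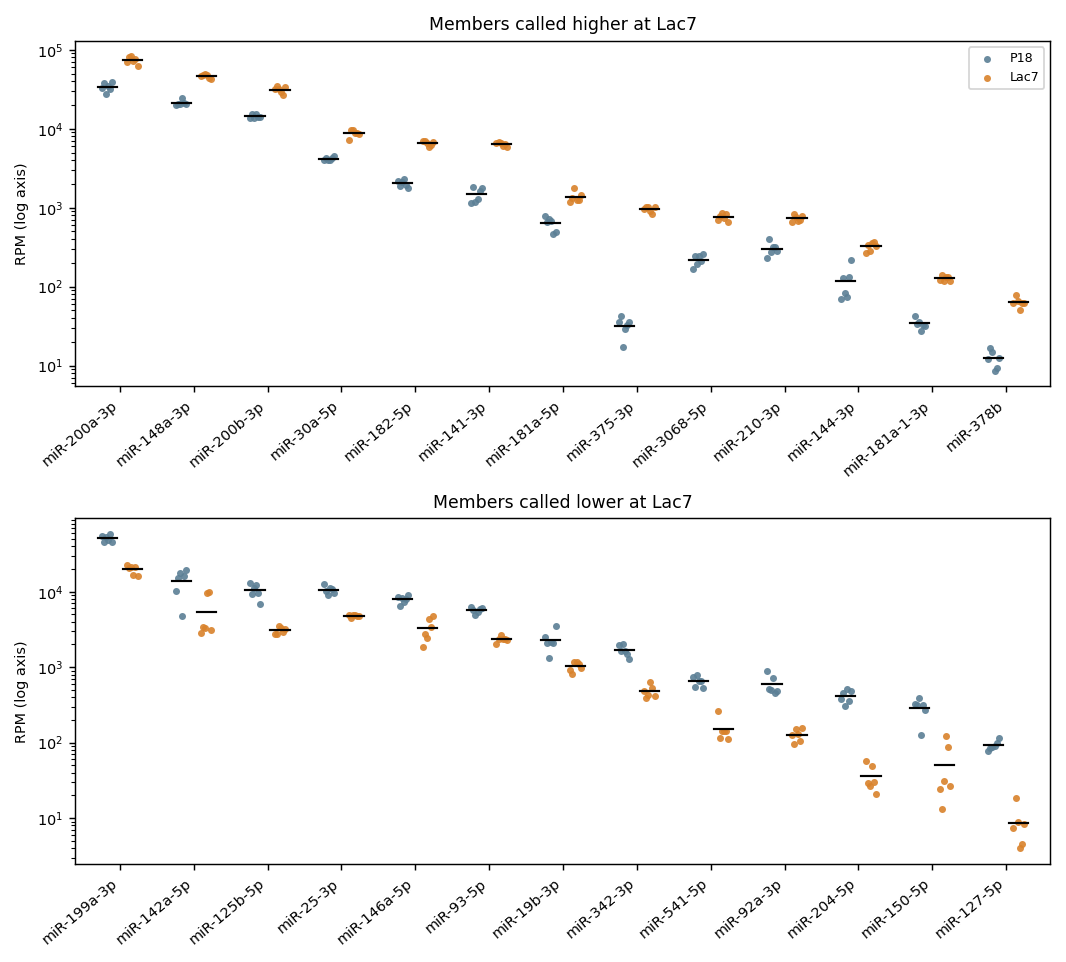
RPM of 13 members called higher (top) and 13 called lower (bottom) at Lac7, on log axes, with 1 point per mouse (6 at P18, 6 at Lac7) and a line at the mean. In the top panel no mouse of one stage overlaps the other, and in the bottom panel only miR-142a-5p overlaps.

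Of the miRNAs linked to basal and squamous epithelium, miR-205 and the minor arm of miR-203 went the other way. miR-205, a marker of basal and progenitor cells of the gland, and miR-203, which represses p63 in skin, gave 4 measured arms, of which 3 were called lower (background 25.1%), with a median of -1.33. miR-205-5p ranged from 337 to 569.6 RPM at P18 (median 479) and from 125 to 208 RPM at Lac7 (median 145) and differed by -1.57 ± 0.25 (SE, adjusted p = 9.03e-06), without overlap. The abundant arm miR-203-3p was not called. It ranged from 6114 to 7399 RPM at P18 (median 6428) and from 4096 to 5531 RPM at Lac7 (median 5062) and differed by -0.41 (adjusted p = 0.0168), short of the cutoff of 1. That is near the median of -0.37 over all members, and with size factors it was -0.11 against -0.14. The minor arm miR-203-5p differed by -1.74 (adjusted p = 3.48e-06). With size factors, 2 of the 4 arms were called (background 18.8%) and miR-205-3p was not (-0.85). In a homogenate, fewer cells of a type and less of a miRNA per cell cannot be told apart, which holds for every difference given here.

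Among the 42 seeds shared by 2 or more members, 10 had only higher calls, 12 only lower calls, 18 none, and 2 had both. Both of the latter belong to miR-181, and over all members 8.37% were called higher and 25.1% lower. For the seed ACAUUCA, miR-181a-5p ranged from 471 to 787 RPM at P18 (median 666) and from 1179 to 1772 RPM at Lac7 (median 1288) and differed by 1.13 ± 0.26 (SE, adjusted p = 0.000816), without overlap. miR-181b-5p, also made from chromosomes 1 and 2, ranged from 782 to 1426 RPM at P18 (median 1056) and from 1215 to 1702 RPM at Lac7 (median 1440.2), and its difference of 0.44 ± 0.25 (SE, adjusted p = 0.155) did not pass the test. The scarce members of the chromosome 8 locus fell, since miR-181d-5p ranged from 19.7 to 43.8 RPM at P18 (median 29.6) and from 1.34 to 18.0 RPM at Lac7 (median 5.55), without overlap, and differed by -2.31 ± 0.54 (SE, adjusted p = 0.000812). miR-181c-5p ranged from 8.58 to 28.0 RPM at P18 (median 16.6) and from 4.01 to 14.8 RPM at Lac7 (median 7.54) with overlapping mice and differed by -1.01 ± 0.36 (SE, adjusted p = 0.0216), a call that was lost with size factors (-0.74) and when any 1 of 5 mice was left out (P18 mice 2, 3 and 6, Lac7 mice 2 and 6). The second seed, CCAUCGA, repeated the split on the other arm, with miR-181a-1-3p at 34.2 RPM at P18 and 128 RPM at Lac7 on average with a difference of 1.89 (adjusted p = 1.43e-06), and miR-181c-3p at 14.2 and 4.19 RPM with a difference of -1.80 (adjusted p = 0.000295). By locus, the passenger arms of chromosome 2 (miR-181a-2-3p and miR-181b-2-3p) were both called higher, that of miR-181a-1 on chromosome 1 was called higher and that of miR-181b-1 was not called (-0.41), and all 3 arms of chromosome 8 were called lower. The chromosome 2 arms were scarce, with P18 means of 1.18 and 3.28 RPM, where a count of 0 allows up to 2.57 to 3.45 RPM. With 10 RPM added in place of 1, 2 arms of the family were called higher and 1 lower, against 4 and 3. Because the seed-mates differ by few bases, reads that the counting could not place may have been split between them.

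miR-146a and miR-146b, which share the seed GAGAACU and dampen NF-κB signalling, also parted. miR-146a-5p ranged from 6474 to 9163 RPM at P18 (median 8163) and from 1829 to 4778 RPM at Lac7 (median 3078), without overlap, and differed by -1.35 ± 0.19 (SE, adjusted p = 1.43e-06), although DESeq2 put it short of the cutoff at -0.97. miR-146b-5p ranged from 27349 to 33963 RPM at P18 (median 31767) and from 47442 to 54079.7 RPM at Lac7 (median 50078), again without overlap, and differed by 0.70 ± 0.26 (SE, adjusted p = 0.0285), which passed the test but not the cutoff of 1. The log2 ratio of miR-146a-5p to miR-146b-5p moved from -1.97 ± 0.27 at P18 to -4.02 ± 0.56 at Lac7 (SD, n = 6 mice each), with no overlap between mice (exact permutation test, adjusted p = 0.00657). The passenger arm miR-146b-3p was called higher, at 1.33 (adjusted p = 0.00586). It was scarce, with means of 3.91 RPM at P18 and 11.0 RPM at Lac7, and lost the call with 0.1 or 10 RPM added in place of 1. The sum over the seed went from 35379 to 42258 RPM at P18 to 50436 to 55976 RPM at Lac7. At W10 the order was reversed, with means of 13137 RPM for miR-146a-5p and 2359 RPM for miR-146b-5p.

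A similar exchange was found for miR-125, whose founding homolog lin-4 times development in worms. miR-125b-5p ranged from 6823 to 13047 RPM at P18 (median 10538) and from 2734 to 3562 RPM at Lac7 (median 3044) and differed by -1.73 ± 0.22 (SE, adjusted p = 2.87e-07), while miR-125a-5p ranged from 3489.5 to 7269 RPM at P18 (median 5391) and from 4562 to 6378 RPM at Lac7 (median 5411) and differed by 0.01 (adjusted p = 0.967). All P18 mice had more miR-125b-5p than miR-125a-5p and all Lac7 mice the opposite, as the log2 ratio of miR-125a-5p to miR-125b-5p moved from -0.92 ± 0.07 at P18 to 0.83 ± 0.09 at Lac7 (SD, n = 6 mice each) (exact permutation test, adjusted p = 0.00657). Of the neighbours, miR-99 showed the same split and let-7 a smaller one. let-7c-5p, whose hairpin let-7c-1 lies beside miR-99a, was not called at -0.38 (adjusted p = 0.00432), near the median of -0.37 over all members. Its log2 ratio to let-7e-5p changed by -0.57 (exact permutation test, adjusted p = 0.00657). miR-99a-5p, on chromosome 16, differed by -1.24 (adjusted p = 0.000677), whereas miR-99b-5p and let-7e-5p, which stand beside miR-125a on chromosome 17, differed by -0.24 (adjusted p = 0.325) and 0.19 (adjusted p = 0.192). The log2 ratio of miR-99a-5p to miR-99b-5p moved from 1.30 ± 0.32 at P18 to 0.30 ± 0.38 at Lac7 (SD, n = 6 mice each), with overlapping mice (exact permutation test, adjusted p = 0.0112). Of the 9 arms of miR-99, miR-100 and miR-125, 4 were called lower (background 25.1%), and 2 of these (miR-99a-5p and miR-100-5p) lost the call with size factors (background 18.8%). In all, 48 of 85 pairs of seed-mates, over 60 miRNAs of at least 100 RPM and 21 seeds, changed their ratio at an adjusted p under 0.05, and 7 of these by at least 1 on the log2 scale. The smallest p that 924 splits of the mice allow is 0.00216 before adjustment. These ratios do not depend on the scaling of a library apart from the added 1 RPM.

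**Figure D2:**
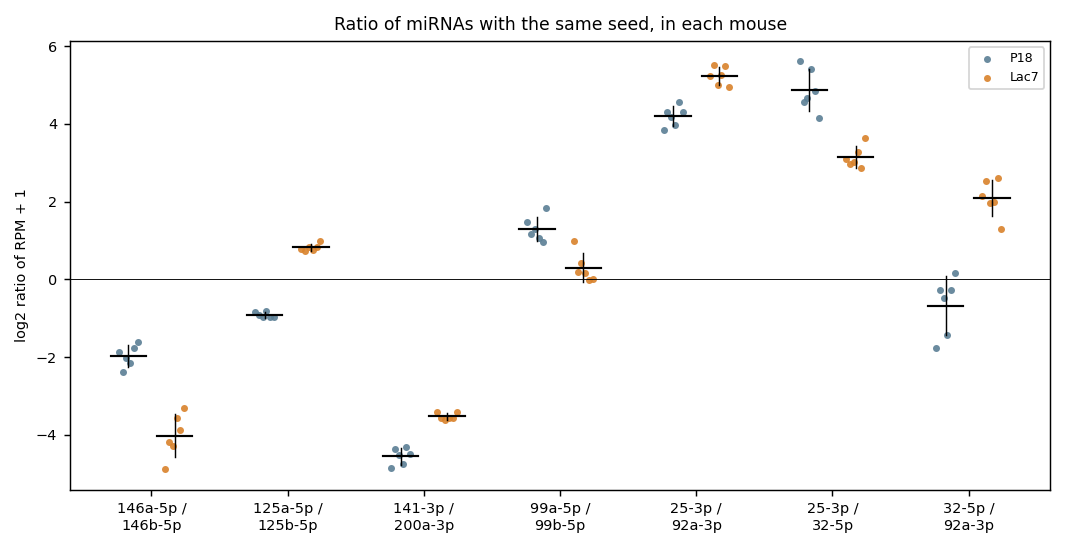
Log2 ratio of RPM + 1 between miRNAs with the same seed for the 7 pairs that changed by at least 1, with 1 point per mouse (6 per stage), a line at the mean and a bar of ± 1 SD. Above 0 the first miRNA is more abundant, and miR-125a-5p crosses 0 against miR-125b-5p between P18 and Lac7.

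Most arms of the clusters known for promoting the cell cycle fell. The miR-17-92 cluster on chromosome 14, its paralog miR-106a-363 on chromosome X and the miR-106b-25 cluster in Mcm7, a gene of DNA replication licensing, share the seeds AAAGUGC and AUUGCAC. In the first pair of clusters 12 of 17 arms were called lower, and in the third 4 of 6, against 25.1% of all members. All 23 were below 0, and the medians were -1.11 and -1.18. With size factors 7 of 17 and 1 of 6 were called lower, against 18.8% of all members, so the share in the miR-106b-25 cluster was then near that of all members. The medians were -0.90 and -0.89 against -0.14 over the members. miR-25-3p, the most abundant of them, ranged from 9086 to 12731 RPM at P18 (median 10583) and from 4419 to 4973 RPM at Lac7 (median 4823). All Lac7 mice were lower than all P18 mice, and the difference of -1.15 ± 0.09 (SE, adjusted p = 1.01e-10) was -0.84 with size factors. miR-93-5p ranged from 4965 to 6314 RPM at P18 (median 5749) and from 2048 to 2687 RPM at Lac7 (median 2345) and differed by -1.28 ± 0.09 (SE, adjusted p = 2.51e-11), or -0.97 with size factors. miR-19b-3p ranged from 1309.5 to 3471 RPM at P18 (median 2137) and from 811 to 1178 RPM at Lac7 (median 1031), without overlap. Its difference of -1.11 ± 0.20 (SE, adjusted p = 5.04e-05) became -0.80 with size factors and -0.98 without P18 mouse 6, both short of the cutoff. miR-92a-3p, cut from the chromosome 14 and X clusters, fell further and ranged from 459 to 881 RPM at P18 (median 511) and from 96.4 to 154 RPM at Lac7 (median 128), with a difference of -2.19 ± 0.24 (SE, adjusted p = 2.60e-08). The largest differences within each list were those of miR-20b-5p from chromosome X, at -2.42 (adjusted p = 9.03e-06), and of miR-93-3p from the Mcm7 cluster, at -1.89 (adjusted p = 6.81e-06), both scarce.

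Their seed-mate miR-32-5p, from chromosome 4, ranged from 259 to 544 RPM at P18 (median 369) and from 382 to 642 RPM at Lac7 (median 566), and its difference of 0.58 (adjusted p = 0.0136) had the other sign. Against miR-92a-3p, its log2 ratio moved from -0.68 ± 0.75 at P18 to 2.09 ± 0.47 at Lac7 (SD, n = 6 mice each) (exact permutation test, adjusted p = 0.00657). For the seed AAAGUGC the summed level went from 5762 to 7349 RPM at P18 to 2503 to 3294 RPM at Lac7, with 5 of 6 members called lower.

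In the miR-15 and miR-16 family, which represses cyclins and BCL2, 4 of 13 arms were called lower (2 with size factors), a share near the 25.1% of all members, with a median of -0.85. Its main member miR-16-5p ranged from 94342 to 115301 RPM at P18 (median 103888) and from 58956 to 68485 RPM at Lac7 (median 63462), without overlap, and differed by -0.72 ± 0.09 (SE, adjusted p = 1.64e-07), short of the cutoff. The passenger arm miR-15b-3p was called, at -1.37 (adjusted p = 6.26e-06). The cluster of miR-322 and miR-503 on chromosome X, which targets cell cycle genes, had 4 of 12 arms called lower (3 with size factors), again near the share of all members. miR-322-5p ranged from 1613 to 2333 RPM at P18 (median 1933) and from 743 to 1031 RPM at Lac7 (median 792) and differed by -1.25 ± 0.13 (SE, adjusted p = 1.27e-08), or -0.95 with size factors, and miR-503-5p differed by -1.75 (adjusted p = 2.00e-07). For miR-130 and miR-301, 2 of 5 were called lower (background 25.1%), 1 of 5 without P18 mouse 1 or Lac7 mouse 2, and neither with size factors, where miR-301a-3p went from -1.27 to -0.96. Within the paralogous miR-23, miR-27 and miR-24 clusters, miR-23a-3p ranged from 7314 to 10094 RPM at P18 (median 8912) and from 3628 to 4426 RPM at Lac7 (median 3940.1) and differed by -1.13 ± 0.13 (SE, adjusted p = 5.18e-08), or -0.82 with size factors. Its partner miR-27a-3p differed by -0.17 (adjusted p = 0.434) and the chromosome 13 paralogs miR-23b-3p and miR-27b-3p by 0.12 (adjusted p = 0.525) and 0.47 (adjusted p = 0.00109). In all, 1 of the 9 arms was called, a share below the 25.1% of all members called lower, or 2 without P18 mouse 2, P18 mouse 3 or Lac7 mouse 3. The median of these 9 arms, -0.17, turned to 0.13 with size factors.

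**Figure D3:**
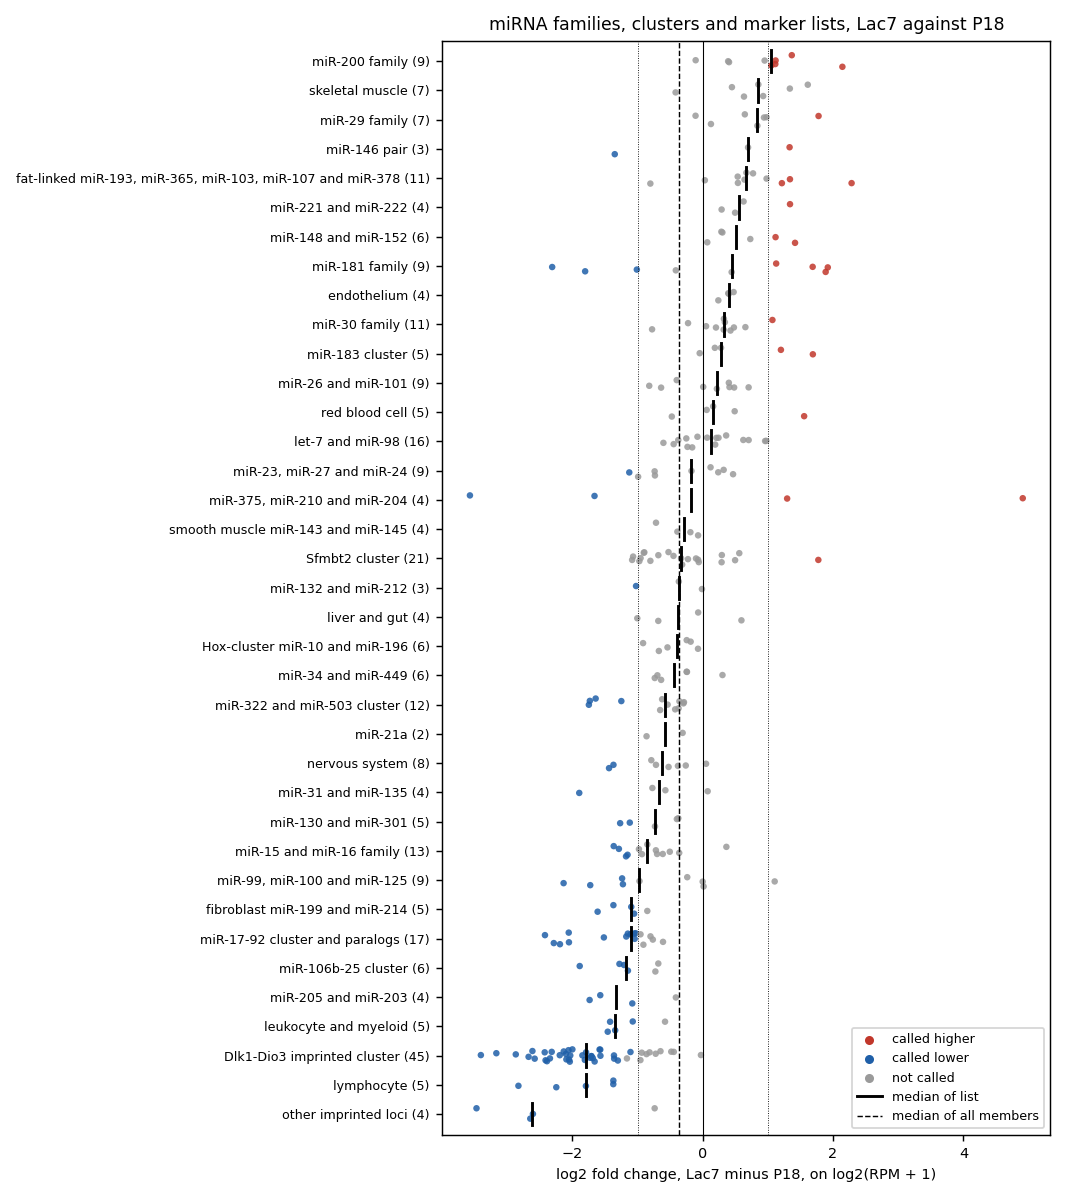
Log2 difference between Lac7 and P18 on log2(RPM + 1) for the members of 37 lists (number of members in brackets), sorted by the median of each list, with dotted lines at the cutoff of 1 and a dashed line at the median of all 490 members, -0.37. The miR-200 family stands at the top with a median of 1.05, and the Dlk1-Dio3, lymphocyte and other imprinted lists at the bottom.

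Most arms of the large imprinted cluster of chromosome 12 fell. The Dlk1-Dio3 domain expresses its miRNAs from the maternal chromosome and is active in embryo, brain, muscle and mesenchyme. All 45 measured arms were below 0, 35 of them were called lower (background 25.1%), and the median was -1.79. With size factors the number was again 35 (background 18.8%), and with 10 RPM added in place of 1 it was 14. miR-3071 is read from the strand opposite miR-136, so their arms may not be separate measurements. The summed level went from 2029 to 2360.1 RPM to 341 to 781 RPM, and only 19 of the 45 reached a mean of 10 RPM at either stage. Its most abundant member miR-541-5p ranged from 526 to 777 RPM at P18 (median 655) and from 112 to 259.7 RPM at Lac7 (median 142) and differed by -2.13 ± 0.21 (SE, adjusted p = 4.02e-09), without overlap. In miR-431-5p, whose hairpin lies opposite an exon of Rtl1 at chr12:109590447-109590537, values ranged from 120.1 to 170.5 RPM at P18 (median 152) and from 19.3 to 30.0 RPM at Lac7 (median 23.3), and the difference was -2.61 ± 0.20 (SE, adjusted p = 6.19e-11). miR-434-5p ranged from 258 to 297 RPM at P18 (median 282) and from 26.7 to 70.6 RPM at Lac7 (median 46.3) and differed by -2.58 ± 0.22 (SE, adjusted p = 6.06e-10). The arm that fell most was miR-127-5p, which ranged from 76.4 to 115 RPM at P18 (median 89.2) and from 3.99 to 18.7 RPM at Lac7 (median 7.97) and differed by -3.41 ± 0.30 (SE, adjusted p = 7.81e-10), without overlap. At W10 the means of the first 3 were 747, 124 and 249 RPM, against 651, 149 and 278 RPM at P18. At other imprinted loci 3 of 4 arms were called lower (background 25.1%), while miR-335-5p from Mest differed by -0.74 (adjusted p = 0.0177). miR-298-5p ranged from 11.2 to 27.7 RPM at P18 (median 13.9) and from 0 to 2.97 RPM at Lac7 (median 0), where every Lac7 value lies under the 3 reads that a count of 0 allows. By contrast, the imprinted miR-466 and miR-669 group in Sfmbt2 had 1 of 21 arms called, miR-466q, which was higher (background 8.37%). With all mice none was called lower (background 25.1%), and the most abundant, miR-669o-3p, differed by -0.06 (adjusted p = 0.885). Without P18 mouse 4, 4 of these arms were called lower, and 1 or 2 without P18 mouse 3 or Lac7 mice 2, 3, 4 or 5.

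Of the 5 arms of miR-199 and miR-214, which are cut from a transcript antisense to dynamin genes in fibroblasts, 4 were called lower in RPM (background 25.1%) and 2 with size factors (background 18.8%). miR-199a-3p ranged from 45093 to 57854 RPM at P18 (median 51311) and from 15993 to 22734 RPM at Lac7 (median 20869), without overlap, and differed by -1.37 ± 0.12 (SE, adjusted p = 1.01e-09). miR-214-3p ranged from 405 to 589 RPM at P18 (median 510.1) and from 139.7 to 183 RPM at Lac7 (median 169) and differed by -1.61 ± 0.27 (SE, adjusted p = 1.47e-05). The miRNAs of smooth muscle and myoepithelium, miR-143 and miR-145, behaved otherwise. miR-143-3p ranged from 137783 to 154585 RPM at P18 (median 144837) and from 128704 to 148114 RPM at Lac7 (median 139004) and differed by -0.07 (adjusted p = 0.525), and none of the 4 arms was called (miR-145a-3p differed most, by -0.72), with a median of -0.29 that turned to 0.01 with size factors. Of single miRNAs, miR-204-5p, which is rich in eye and kidney epithelia, had the largest fall of any member of at least 100 RPM. It ranged from 309 to 519.5 RPM at P18 (median 414) and from 21.1 to 57.1 RPM at Lac7 (median 29.9) and differed by -3.57 ± 0.26 (SE, adjusted p = 3.19e-11). miR-211-5p, which differs from it outside the seed, was scarce, ranging from 0 to 8.05 RPM at P18 (median 5.25) and from 0 to 3.03 RPM at Lac7 (median 0). miR-138-5p, known from neurons, ranged from 217 to 267 RPM at P18 (median 255) and from 75.8 to 131 RPM at Lac7 (median 85.7) and differed by -1.44 ± 0.18 (SE, adjusted p = 1.64e-07). The miR-29 family, which represses collagens, differed in the opposite direction. miR-29a-3p ranged from 8079 to 16201 RPM at P18 (median 11498) and from 15601 to 24363 RPM at Lac7 (median 22015) and differed by 0.84 (adjusted p = 4.84e-05), miR-29b-3p by 0.94 (adjusted p = 4.84e-05) and miR-29c-3p by 0.98 (adjusted p = 1.93e-05). None of these 3 passed the cutoff in RPM and all did with size factors. Of the 7 arms of the family, 1 was called with all mice (background 8.37% higher), the passenger arm miR-29b-1-5p at 1.78, but 3 without P18 mouse 6 or without Lac7 mouse 1, 2 without P18 mouse 3 and 4 without mouse 6 of both stages.

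All 5 arms of the lymphocyte list (miR-150, miR-155 and miR-342) were called lower (background 25.1%), with a median of -1.79 and a summed level of 1692 to 2570.0 RPM at P18 and 435 to 855 RPM at Lac7. miR-342-3p ranged from 1274 to 2000.0 RPM at P18 (median 1619) and from 387 to 637 RPM at Lac7 (median 460.5) and differed by -1.79 ± 0.18 (SE, adjusted p = 5.53e-09). miR-150-5p, of mature lymphocytes, ranged from 127 to 392 RPM at P18 (median 317) and from 13.4 to 124 RPM at Lac7 (median 28.9) and differed by -2.83 ± 0.39 (SE, adjusted p = 1.15e-06). In the leukocyte and myeloid list 4 of 5 arms were called lower (background 25.1%), 3 with size factors (background 18.8%) and 1 with DESeq2. miR-142a-5p ranged from 4771 to 19412 RPM at P18 (median 15759.8) and from 2804 to 9787 RPM at Lac7 (median 3403), with overlapping mice, and differed by -1.46 ± 0.32 (SE, adjusted p = 0.000482). The granulocyte miRNA miR-223-3p differed by -0.58 (adjusted p = 0.00109), short of the cutoff. The most abundant entry, miR-142b, ranged from 13600.2 to 38450.4 RPM at P18 (median 30871) and from 6091 to 22539 RPM at Lac7 (median 7576) and differed by -1.42 ± 0.29 (SE, adjusted p = 0.000239), but it is read from the strand opposite miR-142a. The use of strand in the counting is not given in the sources used here, so its reads and those of miR-142a-3p cannot be told apart.

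Within a stage, these markers varied from mouse to mouse. P18 mouse 4 had 4771 RPM of miR-142a-5p, the lowest at P18, and Lac7 mice 4 and 5 had 9583 and 9787 RPM, against 2804 to 3455 RPM in the other 4 Lac7 mice. The skeletal muscle miRNA miR-1b-5p showed the reverse in these 3 mice, with 3320 RPM in P18 mouse 4, the highest at P18, and 156 and 221 RPM in Lac7 mice 4 and 5, against 4476 to 12349.7 RPM in the other 4. P18 mouse 6 did not follow this, with 2745 RPM of miR-1b-5p beside 19412 RPM of miR-142a-5p, the highest at P18. The 7 muscle arms summed to 343 to 5833 RPM at P18 and 263 to 17649 RPM at Lac7, and none was called with all mice, 2 without Lac7 mouse 4 and 1 without Lac7 mouse 5. Their part in the differences between the stages was not tested. Without these 3 libraries, 175 members were called (47 higher, 128 lower). All 5 lymphocyte arms and 4 of 5 leukocyte arms were then lower, and 5 of 7 muscle arms higher. The 3 were picked by markers of these same lists, so the counts of these lists follow from that choice and are no separate test. The liver miRNA miR-122-5p was at 2062 RPM in P18 mouse 6 and at 54.8 RPM in Lac7 mouse 6, against at most 2.66 RPM in the other 10 mice, and none of the 4 liver and gut arms was called. Without both of these libraries 164 members were called, 44 higher and 120 lower, of which 152 were also called with all mice.

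**Figure D4:**
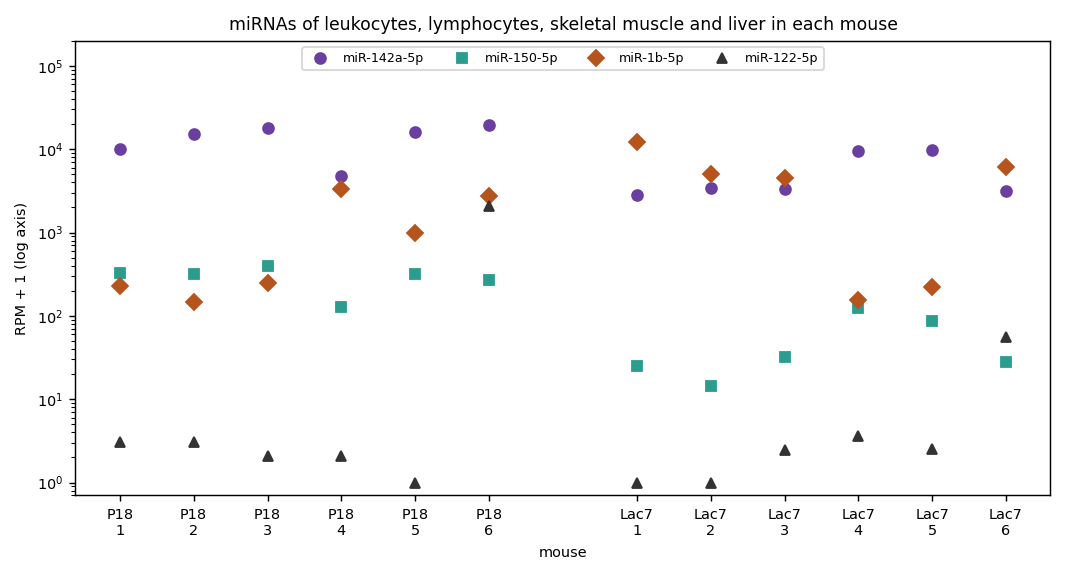
RPM + 1, on a log axis, of miR-142a-5p (leukocytes), miR-150-5p (lymphocytes), miR-1b-5p (skeletal muscle) and miR-122-5p (liver) in each of the 12 mice, 1 point per mouse. Lac7 mice 4 and 5 are high for the first pair and low for miR-1b-5p, P18 mouse 4 shows the reverse, and miR-122-5p stands out in mouse 6 of both stages.

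Among red blood cell miRNAs, 1 of 5 was called (background 8.37% higher). miR-144-3p ranged from 70.3 to 216 RPM at P18 (median 106) and from 264 to 371 RPM at Lac7 (median 331), without overlap, and differed by 1.56 ± 0.25 (SE, adjusted p = 1.10e-05), while miR-451a, cut from the same transcript and abundant in red cells, ranged from 278 to 806 RPM at P18 (median 374) and from 543 to 659 RPM at Lac7 (median 641) and differed by 0.49 (adjusted p = 0.134). The 4 endothelial arms of miR-126 all passed the test upward, by 0.24 to 0.47, and none reached the cutoff. miR-126b is read from the strand opposite miR-126a, so these arms may not be separate measurements. miR-126a-3p ranged from 14704 to 16134 RPM at P18 (median 15501) and from 16938 to 19312 RPM at Lac7 (median 18213), without overlap. In the list of miRNAs linked to fat, 3 of 11 were called higher (background 8.37%), of which miR-378b ranged from 8.68 to 16.6 RPM at P18 (median 12.4) and from 50.5 to 77.6 RPM at Lac7 (median 62.6) and differed by 2.28 ± 0.27 (SE, adjusted p = 7.54e-08). miR-103-3p, the most abundant of them, ranged from 34848 to 42573 RPM at P18 (median 35374) and from 46392 to 61038 RPM at Lac7 (median 52753) and differed by 0.54 (adjusted p = 0.00012), short of the cutoff. Members of miR-378 share most of their sequence, so their reads may be split between them.

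Of 16 arms of let-7 and miR-98, which restrain growth and mark differentiated cells, none was called, and the median was 0.13. Without P18 mouse 1, P18 mouse 6 or Lac7 mouse 6, 1 of them was called higher. Their summed level was 234155 to 306931 RPM at P18 and 223072 to 290998 RPM at Lac7. let-7c-5p ranged from 129438 to 173046 RPM at P18 (median 146575) and from 99247 to 139372 RPM at Lac7 (median 111642) and differed by -0.38 (adjusted p = 0.00432), and let-7a-5p differed by 0.07 (adjusted p = 0.647). miR-21a-5p, a miRNA of growth and injury, ranged from 11166 to 15979.9 RPM at P18 (median 13059) and from 9101 to 13038 RPM at Lac7 (median 10219.8) and differed by -0.31 (adjusted p = 0.0717), while 1 of its 2 arms was called lower without P18 mouse 1, Lac7 mouse 1 or Lac7 mouse 5. The scarce lists of nervous tissue, miR-31 with miR-135, and miR-132 with miR-212 had shares of lower calls near the 25.1% of all members. In nervous tissue 2 of 8 arms were called, both of miR-138 and both lower, and the neuronal miR-9-5p differed by -0.26 (adjusted p = 0.276). Of the pairs miR-31 with miR-135 and miR-132 with miR-212, 1 of 4 and 1 of 3 arms were called, miR-135b-5p at -1.90 and miR-212-5p at -1.02, the latter not without P18 mouse 3, while their main arms miR-31-5p and miR-132-3p differed by -0.77 (adjusted p = 0.00305) and -0.01 (adjusted p = 0.979). None of the arms of miR-26 and miR-101 (9), of the Hox-cluster miR-10 and miR-196 (6) or of miR-34 and miR-449 (6) was called in RPM, except that 1 arm of miR-26 and miR-101 was called lower without P18 mouse 5 or Lac7 mouse 6. Among these, miR-101a-3p differed by 0.70 (adjusted p = 0.000239), miR-10a-5p by -0.54 (adjusted p = 0.000786), miR-196b-5p by -0.92 (adjusted p = 2.83e-05) and miR-34c-5p by -0.64 (adjusted p = 0.00334). miR-221-3p and miR-222-3p, which share a seed and lie on chromosome X, differed by 0.50 (adjusted p = 0.000408) and 1.34 (adjusted p = 0.000128), and the second was called.

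The arms of a hairpin did not always move alike. For the 64 hairpins with at least 10 RPM on both arms, the log2 ratio of 5p to 3p was compared in the same way, and it does not depend on library scaling apart from the added 1 RPM. The ratio was called in 8 (12.5%), with 5 moving toward 5p (7.81%) and 3 toward 3p (4.69%), in 56 the difference was below 1, and 18 (28.1%) passed the test whatever its size. In miR-141 the 5p arm made up 33.8% to 50.1% at P18 (median 43.2%) and 23% to 29.7% at Lac7 (median 25%). Both arms rose, the 3p arm more, and the log2 ratio changed by -1.09 ± 0.17 (SE, adjusted p = 5.11e-06). For miR-144 the share of 5p was 22.2% to 33% at P18 (median 25.9%) and 8.57% to 15.8% at Lac7 (median 11.4%), a change of -1.50 ± 0.25 (SE, adjusted p = 1.40e-05), since the 3p arm rose while miR-144-5p differed by 0.06. In miR-203 the 5p arm was minor and went from 0.941% to 1.79% at P18 (median 1.3%) to 0.341% to 0.649% at Lac7 (median 0.535%), a change of -1.32 ± 0.22 (SE, adjusted p = 1.38e-05). Toward 5p, miR-17 went from 23% to 41.8% at P18 (median 31.6%) to 40% to 57.3% at Lac7 (median 53%), a change of 1.24 ± 0.26 (SE, adjusted p = 0.000315). Its mean share thus passed 50%, as both arms fell and miR-17-3p, at 277 RPM at P18 and 56.3 RPM at Lac7, fell more. The share of 5p in miR-674 was 62.3% to 77.3% at P18 (median 73.5%) and 84.4% to 91.5% at Lac7 (median 87.2%), without overlap, a change of 1.54 ± 0.23 (SE, adjusted p = 5.11e-06). miR-1843a changed by 1.27 ± 0.20 (SE, adjusted p = 5.72e-06), miR-151 by 1.11 ± 0.29 (SE, adjusted p = 0.00451) and miR-423 by 1.08 ± 0.33 (SE, adjusted p = 0.0115). The mice of the stages overlapped in miR-17, miR-151 and miR-423 and not in the other 5. The change of miR-151, whose P18 mice spread over 36.6% to 70.7% at P18 (median 56.1%), was 0.93 without P18 mouse 1 and 0.92 without P18 mouse 3, short of the cutoff of 1. Without P18 mouse 1 that of miR-141 was -0.997, just short of it. In 3 further hairpins (miR-127, miR-34b and miR-664) the mean share of 5p crossed 50% without a call.

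**Figure D5:**
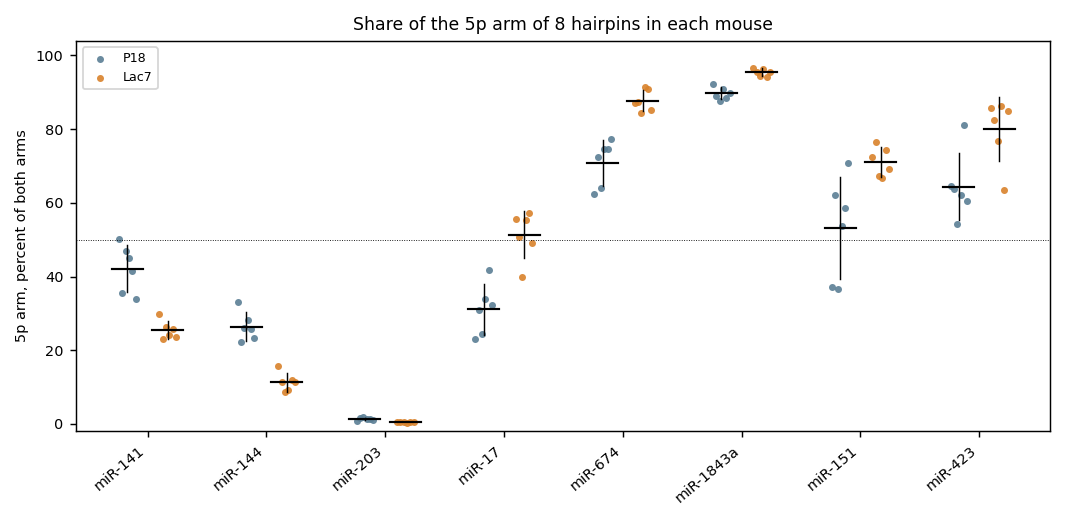
Share of the 5p arm in the reads of both arms, in percent, for the 8 hairpins with a called change of ratio, with 1 point per mouse (6 per stage), a line at the mean and a bar of ± 1 SD. miR-141, miR-144 and miR-203 move toward 3p at Lac7, the other 5 toward 5p, and miR-17 crosses the dotted line at 50%.

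By position, 167 of the 387 members with a single locus lay in 35 clusters, where neighbours on the same strand were at most 10 kb apart. Calls were only lower in 17 clusters, only higher in 9, absent in 8, and in both directions in 1. Over all members, 25.1% were called lower and 8.37% higher. The mixed cluster was that of miR-224-5p and miR-452-3p on chromosome X, named after its values were seen. miR-224-5p ranged from 194 to 273 RPM at P18 (median 238) and from 78.6 to 111 RPM at Lac7 (median 88.4) and differed by -1.38 (adjusted p = 4.67e-08), while miR-452-3p was scarce, ranging from 0 to 4.08 RPM at P18 (median 1.01) and from 2.66 to 4.54 RPM at Lac7 (median 2.91). No Lac7 value of miR-452-3p was above 3 reads, the most that a count of 0 allows, so the mixed direction rests on values at that limit. The median GC content of the mature sequence was 46.6% in 38 members called higher, 48.9% in 116 called lower and 45.5% in 264 not called, and the first base was U in 39.5%, 41.4% and 40.5% of them.

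Outside the 37 lists stood 183 members, with a median of -0.12, of which 17 were called higher and 28 lower (background 8.37% higher and 25.1% lower). miR-151-5p, from an intron of the focal adhesion kinase gene, ranged from 321 to 711 RPM at P18 (median 556) and from 1020.1 to 1164 RPM at Lac7 (median 1050.3) and differed by 1.08 ± 0.24 (SE, adjusted p = 0.000433), without overlap. miR-1839-5p ranged from 87.5 to 113 RPM at P18 (median 102) and from 203 to 302 RPM at Lac7 (median 254) and differed by 1.32 ± 0.14 (SE, adjusted p = 2.60e-08), also without overlap. miR-190a-5p, from an intron of the talin 2 gene, ranged from 91.6 to 144 RPM at P18 (median 129) and from 209 to 292 RPM at Lac7 (median 258) and differed by 1.02 ± 0.29 (SE, adjusted p = 0.00487). Both arms of miR-676 were called higher, with the 3p arm ranging from 13.8 to 39.7 RPM at P18 and from 69.6 to 112 RPM at Lac7 (median 85.8) and differing by 1.91 ± 0.23 (SE, adjusted p = 1.42e-07). Both arms of miR-3068 were called higher too, and the 3p arm ranged from 0 to 5.42 RPM at P18 (median 3.59) and from 5.62 to 13.4 RPM at Lac7 (median 8.01). Of those that fell, miR-3964 ranged from 45.6 to 171 RPM at P18 (median 114) and from 11.2 to 40.9 RPM at Lac7 (median 21.2) and differed by -2.09 ± 0.32 (SE, adjusted p = 6.67e-06), without overlap. miR-455-5p, from an intron of a collagen gene of cartilage, ranged from 95.5 to 122 RPM at P18 (median 113) and from 43.5 to 56.0 RPM at Lac7 (median 52.6) and differed by -1.11 ± 0.19 (SE, adjusted p = 2.63e-05), or -0.81 with size factors, which is short of the cutoff. The miRNAs of this paragraph were chosen after their values were seen.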

How the data were processed

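Small RNA of 24 mammary glands (W10, P18, Lac7 and Inv3, 6 mice each) was sequenced by the study from a QIAseq miRNA library. Per the study's methods, miRNAs were counted with QuickMIRSeq against miRBase 22. The submitters' processing notes also name Trimmomatic 0.36, cutadapt and GRCm38. Use of molecular identifiers and of strand in the counting is not given in the sources used here. The table deposited by the authors holds RPM values, each library divided by its total of miRNA reads. In 23 libraries all values were whole multiples of 1 read, which gave the depth, and the other (a W10 mouse) was left out of count models only.

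The fit used log2(RPM + 1) of the 544 miRNAs whose mean reached 1 RPM in any of the 4 stages. It was made with limma 3.58.1 (lmFit, eBayes with trend, stage as the only term, all 24 libraries, two-sided, Benjamini-Hochberg adjustment over the 544). All adjusted p-values are from this fit, or from the same fit over 64 hairpins for 5p to 3p ratios, unless an exact permutation test is named. A call needed an adjusted p under 0.05 and a difference of 1 or more in size. With 1 RPM added, differences of scarce miRNAs come out too small. Alternatives were another pseudocount, filter and scaling, edgeR 4.0.16 and DESeq2 1.42.0 on the recovered reads, thinning, a replicate block and leaving out mice. The scripts were tested on simulated data. In the 30 pairs of mice within the 2 stages the counts differed by more than sampling noise (smallest chi-square per degree of freedom 9.63), so no library was merged with another.

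Sequences and miRNA positions came from RefSeq tables on GRCm38.p6, and host genes from GENCODE vM21. Named are the 10 most abundant miRNAs of each stage, the 6 largest called rises and falls of at least 100 RPM, the main and the most changed member of each list, the 4 largest arm changes each way, and seeds with opposite calls. Members, lists and tests were chosen with earlier results of these data known, and names outside this rule, the seed-mate ratios included, were chosen after their values were seen.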

Additional observations from a re-analysis of the deposited data

Results flagged for a closer look

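In 14 of 166 groups of 6 mice, 1 mouse stood apart from the other 5 by Dixon's criterion, which chance meets in about 1 group in 20. At P18, mouse 6 was highest for miR-122-5p with 2062.0 RPM (others at most 2.07), for miR-192-5p with 2260.84 RPM (others 666 to 844) and for miR-148b-5p with 8.05 RPM (others 1.02 to 3.25). At Lac7, mouse 6 was highest for miR-122-5p with 54.77 RPM (others at most 2.66).

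At P18, mouse 2 had 42573.48 RPM of miR-103-3p (others 34848 to 37254), mouse 4 had 24827.16 RPM of miR-148a-3p (others 19936 to 21216) and mouse 3 had 27.7 RPM of miR-298-5p (others 11.2 to 15.5). At Lac7, mouse 2 had 18.74 RPM of miR-127-5p (others 3.99 to 8.9) and 12.04 RPM of miR-181c-3p (others 1.4 to 4.54). Lac7 mouse 3 had 130.5 RPM of miR-138-5p (others 75.8 to 91.6), mouse 4 had 21.28 RPM of miR-20b-5p (others 1.34 to 7.57) and mouse 1 had 259.72 RPM of miR-541-5p (others 112 to 144). Lac7 mouse 5 had 19.69 RPM of miR-148b-5p (others 7.41 to 12) and 1031.28 RPM of miR-322-5p (others 743 to 815). With these mice included, the stages did not overlap for miR-103-3p, miR-127-5p, miR-138-5p, miR-148a-3p, miR-298-5p, miR-322-5p and miR-541-5p.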

How the results depend on the processing

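With all mice 164 members were called (41 higher, 123 lower), and 157 to 170 when 1 mouse was left out (38 to 44 higher, 118 to 127 lower), of which 151 to 159 were among the 164, and no call changed direction under any alternative. With a pseudocount of 10 RPM there were 82 calls (28 higher, 54 lower), all of them among the 164, and with 0.1 RPM 174. A filter at 100 RPM left 188 members and 67 calls (21 higher, 46 lower), all of them among the 164. DESeq2, on the reads of 23 libraries, gave 139 calls with 62 higher and 77 lower, and edgeR 163 with 53 higher and 110 lower. No filter gave 158 calls, thinning 151 and a fit of the 12 libraries alone 164. Of the arm ratios, 7 to 10 were called without 1 mouse (4 to 6 toward 5p, 3 to 6 toward 3p, the latter 6 without P18 mouse 3 and 5 without Lac7 mouse 6), and 10 without mouse 6 of both stages, with 5 toward 3p. With arms of at least 100 RPM, 16 hairpins were left and 2 called (1 toward 5p, 1 toward 3p), and with at least 1 RPM 16 of 127 (11 toward 5p, 5 toward 3p). Where no construction of the alternative is named, the cause was not tested. Of the values for single named miRNAs under the other alternatives, 850 kept direction and side of the threshold, 22 fell short of it, 12 newly passed it and 14 moved. Leaving out mouse 6 of both stages, or P18 mouse 4 with Lac7 mice 4 and 5, was chosen after seeing the data.

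Mice of the stages share numbers 1 to 6, but same-numbered mice did not deviate together. Over 166 miRNAs the 6 correlations of their deviations ran from -0.81 to 0.64, and 1 of the 6 correlated best with its own number. With the replicate number as a block, 163 members (40 higher, 123 lower) and 8 arm ratios were called. At 660346 to 751890 reads, a Lac7 library leaves up to 4.54 RPM open for a miRNA with no read, so falls of the scarcest members are limited by depth.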
